A study of Mus musculus with 6 samples.

Results

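The insulin-like growth factor (IGF) family was examined in the RPE-choroid of untreated mice and of mice with subretinal fibrosis by RNA-seq. Its 10 members were taken by gene symbol: the ligands Igf1 and Igf2, the receptors Igf1r and Igf2r, and the binding proteins Igfbp2, Igfbp3, Igfbp4, Igfbp5, Igfbp6 and Igfbp7. All 10 were found among the 15663 genes listed for every mouse, and all 10 had enough counts to be tested. The tissue joins the pigmented epithelial layer behind the photoreceptors (RPE, retinal pigment epithelium) to the vascular choroid beneath. The 3 control mice were untreated. The 3 fibrosis mice had 4 lesions burned by laser in each eye and burned again after 10 days, and RNA was extracted 20 days after that. All mice were young adult males of the strain C57BL/6 (C57BL/6J in the study's methods), and each gave 1 library. The sample was the whole RPE-choroid and not the dissected lesion, so fewer cells of a type and less RNA per cell cannot be told apart. Counts on genes summed to between 13667310 and 24356023 per library.

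IGF-1 and IGF-2 are small secreted peptides related to insulin. Both signal through the tyrosine kinase receptor encoded by Igf1r, which acts through insulin receptor substrates, PI3 kinase and AKT on growth and survival of cells. The receptor encoded by Igf2r binds IGF-2 and carries it to the lysosome, and the same receptor sorts lysosomal enzymes that bear mannose 6-phosphate. Most IGF in tissue fluid is held by the IGF binding proteins, which keep the ligand from the receptor or store it in the matrix until a protease cuts the binding protein. In the eye, IGF-1 is known for its part in growth of retinal and choroidal vessels, and binding proteins are made by RPE, vascular and stromal cells.

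Among the 10 members, Igfbp4 and Igfbp7 had the largest differences between the groups. Igfbp4 was 1.57-fold and Igfbp7 1.37-fold higher in fibrosis, and these were the 2 members at an unadjusted p-value below 0.05 in the quasi-likelihood test of edgeR. Such a p-value was found for 7.01% of the 13454 genes tested, 4.16% with a higher and 2.85% with a lower level in fibrosis. After Benjamini-Hochberg adjustment over all tested genes, 0 members were called at an adjusted p-value below 0.05 and a log2 difference of 0.5 or more, as were 0% of all tested genes. DESeq2 on the same counts called 0 members and 1.14% of all genes. Its unadjusted p-value was below 0.05 for the same 2 members and for 7.23% of all genes, 4.04% higher and 3.19% lower in fibrosis. The mean level was higher in fibrosis for 7 members and lower for 3, with a median log2 fold change of 0.18 against 0.00 over all tested genes. The plot of normalized counts by mouse shows these values.

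**Figure D1:**
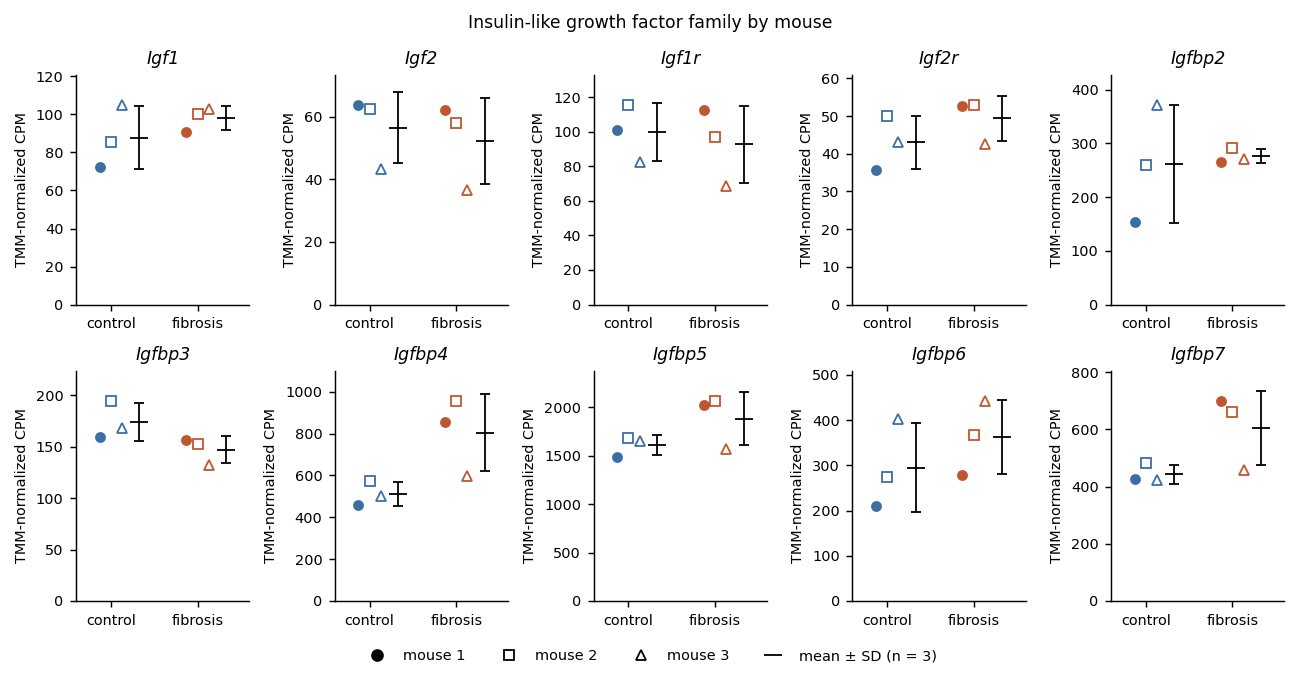
Each panel plots 1 gene as CPM (counts scaled to a common library size by TMM, axis from 0) in 3 control and 3 fibrosis mice, with symbols for the mouse number and bars for the mean ± SD. Igfbp4 is the member whose 3 fibrosis mice, at 599 to 956 CPM, all sit above the control mice, at 459.9 to 575 CPM.

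The libraries stood apart in some ways that followed the groups and in others that did not. Control mouse 1 and fibrosis mouse 3 held far more retinal RNA than the other libraries. The 23 photoreceptor genes summed to 14909 CPM in control mouse 1 and 14469 CPM in fibrosis mouse 3, and to between 850.2 and 2045 CPM in the other 4. Each member is therefore also given without these 2 libraries where that changes its call or direction. Of the 17 macrophage genes, 11 were higher in fibrosis at an unadjusted p-value below 0.05 in edgeR, and the list's sums did not overlap (1690.1 to 2161 CPM in control, 3926 to 5634 CPM in fibrosis). The 10 RPE genes summed to between 44636 and 53022 CPM in control and between 29783 and 39624 CPM in fibrosis, so the labelled tissue was abundant in every library and the groups did not overlap for this list either. Of these 10 genes, 9 had a lower mean level in fibrosis, 5 of them at an unadjusted p-value below 0.05 in edgeR. Over all tested genes, 4.16% were higher and 2.85% lower in fibrosis at that limit. The 11 fibroblast genes lay between 4667 and 10662 CPM in control and between 7176 and 11619 CPM in fibrosis. The 15 endothelial genes lay between 2483 and 2945 CPM and between 2281 and 3072 CPM. The groups overlapped for the fibroblast and endothelial lists. All 11 fibroblast genes had a positive log2 fold change, 2 of them at an unadjusted p-value below 0.05 in edgeR. Of the 15 endothelial genes, 10 had a positive and 5 a negative log2 fold change, with 0 at that limit. The 9 mural (vessel wall) genes lay between 1954 and 2628 CPM and between 2284 and 2491 CPM. The 8 skeletal muscle genes were lowest in fibrosis mouse 3, at 867 CPM, and highest in fibrosis mouse 1, at 2942 CPM. For the 10 inner retina genes, control mouse 1 and fibrosis mouse 3 were again the highest, at 902 and 928 CPM. No tested marker was at 0 in any library, but the lowest count of any gene listed was 1, so this could not have differed. The part of these cell types in the values below was not tested.

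**Figure D2:**
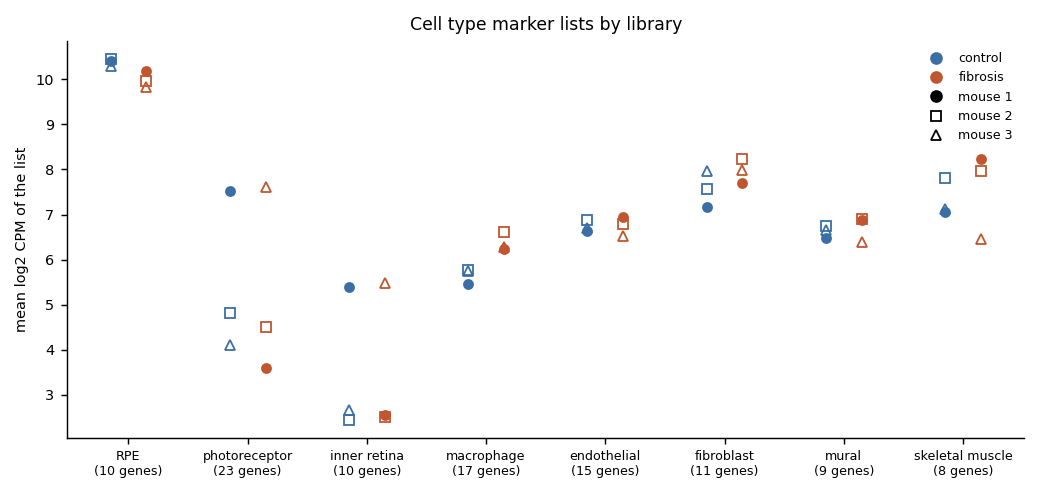
The mean log2 CPM of 8 marker lists is plotted for each library, control in blue and fibrosis in orange, with a symbol for each mouse number. The groups separate for the RPE and macrophage lists, and control mouse 1 and fibrosis mouse 3 stand far above the others for the photoreceptor and inner retina lists.

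Igfbp4 encodes a binding protein that inhibits IGF action and releases the ligand when the protease PAPP-A cuts it. The gene (ENSMUSG00000017493) lies on the forward strand of chromosome 11 (99041244 to 99054392, GRCm38). It had 459.9, 575 and 500.3 CPM (counts scaled per library by TMM) in control mice 1, 2 and 3 and 856, 956 and 599 CPM in fibrosis mice 1, 2 and 3. The lowest fibrosis mouse, mouse 3, was close to the highest control mouse, and the groups did not overlap. Group means ± SD were 512 ± 58.6 CPM for controls and 804 ± 184 CPM for fibrosis (n = 3 each). On the log2 scale fibrosis exceeded control by 0.65, with a standard error of 0.19 and a 95% interval from 0.19 to 1.11. The edgeR p-value was 0.0121 unadjusted and 0.465 after Benjamini-Hochberg adjustment, and DESeq2 gave an adjusted p-value of 0.0776. A two-sided exact permutation test on CPM gave p = 0.1, which is the lowest value that 3 mice against 3 can reach. Groups that did not overlap, with fibrosis higher, were found for 6.67% of all tested genes, and for 13.1% in either direction. Between the 2 libraries rich in retinal RNA the levels were 459.9 CPM in control and 599 CPM in fibrosis. Without those 2 libraries the difference was 0.75 and edgeR called Igfbp4 at an adjusted p-value of 0.0436 (Benjamini-Hochberg), together with 1.16% of the genes tested there.

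Igfbp7 encodes a secreted protein of vessels and matrix that binds IGF only weakly. The gene (ENSMUSG00000036256) lies on the reverse strand of chromosome 5 from 77349240 to 77408041. It had 426, 482 and 423 CPM in control mice 1, 2 and 3 and 699.7, 660.1 and 457 CPM in fibrosis mice 1, 2 and 3. Fibrosis mice 1 and 2 were above every control mouse, and fibrosis mouse 3 lay within the control range, so the groups overlapped. Group means ± SD were 444 ± 33.6 CPM for controls and 606 ± 130.3 CPM for fibrosis (n = 3 each). This gave a log2 fold change of 0.45, a standard error of 0.18 and a 95% interval from 0.03 to 0.87. The edgeR p-value was 0.0401 unadjusted and 0.668 adjusted, and DESeq2 gave an adjusted p-value of 0.400. Without fibrosis mouse 3 the log2 fold change was 0.62, and without fibrosis mouse 1 it was 0.33. The gene overlaps Polr2b on the opposite strand, which had between 1181 and 2117 counts per library against 5732 to 12970 for Igfbp7, and whether counting used the strand is not given in the sources used here.

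The stretches before the annotated starts of these 2 genes are shown because they had the largest differences of the family. Each is the 250 bases upstream of the RefSeq start, on GRCm38.p6, written 5′ to 3′ on the strand of the gene. Capitals mark matches on either strand to the Sp1 GC box GGGCGG, the AP-1 site TGANTCA, the TATA box TATAAA and the E-box CACGTG. The Igfbp4 stretch is chr11:99040994-99041243 on the forward strand and the Igfbp7 stretch is chr5:77408046-77408295 on the reverse strand.
Igfbp4: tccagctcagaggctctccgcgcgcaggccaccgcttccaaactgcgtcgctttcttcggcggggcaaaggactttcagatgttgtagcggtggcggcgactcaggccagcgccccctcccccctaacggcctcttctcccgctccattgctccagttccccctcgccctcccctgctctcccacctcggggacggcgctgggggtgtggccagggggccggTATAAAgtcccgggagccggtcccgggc
Igfbp7: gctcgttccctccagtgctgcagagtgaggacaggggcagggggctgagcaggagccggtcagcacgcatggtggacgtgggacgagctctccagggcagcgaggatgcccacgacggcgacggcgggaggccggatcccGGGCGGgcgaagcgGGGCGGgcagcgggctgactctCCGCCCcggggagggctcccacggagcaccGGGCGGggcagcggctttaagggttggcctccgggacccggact
The Igfbp4 stretch held 1 TATA box and 0 matches to the GC box, and the Igfbp7 stretch held 4 matches to the GC box and 0 to the TATA box. Of 32851 stretches of this length before mouse gene starts, 12.4% held the TATA box, 32.7% the GC box, 6.75% the AP-1 site and 6.02% the E-box. The dinucleotide CG occurred 22 times before Igfbp4 and 26 times before Igfbp7, against a median of 6 over all stretches. All 10 members had at least 1 such stretch, 14 in all, and the AP-1 site was found in 1 of those before Igfbp2 and in the one before Igf1. These matches are letters in the sequence, and no binding was measured.

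Igfbp5, a binding protein that attaches to extracellular matrix, had a median of 274 FPKM over the 6 libraries. Its gene (ENSMUSG00000026185) lies on chromosome 1 from 72857932 to 72874884, next to Igfbp2 (72824503 to 72852474) and on the opposite strand. Igfbp5 was at 1492, 1689.7 and 1657 CPM in control mice 1, 2 and 3 and at 2023, 2068 and 1566 CPM in fibrosis mice 1, 2 and 3. As for Igfbp4 and Igfbp7, fibrosis mouse 3 was the lowest fibrosis mouse, and here it fell within the control range. Its log2 fold change of 0.23 had a 95% interval from -0.11 to 0.56, and the adjusted p-value from edgeR was 0.879. With 1 mouse left out it ranged from 0.15 (without fibrosis mouse 2) to 0.35 (without fibrosis mouse 3).

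Igfbp2, a binding protein that prefers IGF-2, differed more among control mice than between the groups. It had 153, 259.9 and 372 CPM in control mice 1, 2 and 3 and 266, 291 and 272 CPM in fibrosis mice 1, 2 and 3. All 3 fibrosis mice lay within the range of the control mice. Group means ± SD were 262 ± 109.6 CPM for controls and 276 ± 13.3 CPM for fibrosis (n = 3 each), and the log2 fold change of 0.08 had a 95% interval from -0.61 to 0.77. Its direction turned without control mouse 1, to -0.19, and also without the 2 libraries rich in retinal RNA, to -0.19.

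Igfbp6, a binding protein with strong preference for IGF-2 (ENSMUSG00000023046, chromosome 15, 102144362 to 102149511), showed a like spread. It had 209, 273 and 402 CPM in control mice 1, 2 and 3 and 279, 367 and 442 CPM in fibrosis mice 1, 2 and 3. The groups overlapped over most of their range. Its log2 fold change was 0.30 with a 95% interval from -0.34 to 0.94, and it turned to -0.068 without the 2 libraries rich in retinal RNA. With 1 mouse left out it ranged from 0.11 (without control mouse 1) to 0.59 (without control mouse 3), and it was 0.14 without fibrosis mouse 3 and 0.45 without fibrosis mouse 1. Control mouse 1 was lowest and control mouse 3 highest among controls for both Igfbp2 and Igfbp6. The fibroblast list (4667 and 10662 CPM) and the total counts (13667310 and 24356023) were also lowest and highest among controls there. In fibrosis mice 1, 2 and 3 the fibroblast list was at 7176, 9896 and 11619 CPM, an order that Igfbp6 followed and Igfbp2 did not. The part of fibroblasts or depth in these values was not tested.

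Igfbp3, the main carrier of IGF in blood and a product of vascular cells, had a lower mean level in fibrosis. The gene (ENSMUSG00000020427) lies on chromosome 11 from 7206086 to 7213923. It had 159.6, 195 and 169 CPM in control mice 1, 2 and 3 and 157, 153 and 132 CPM in fibrosis mice 1, 2 and 3. The groups did not overlap in CPM, but the lowest control mouse and the highest fibrosis mouse were nearly level. Groups that did not overlap, with fibrosis lower, were found for 6.44% of all tested genes. Igfbp3 had a log2 fold change of -0.24, with a standard error of 0.13 and a 95% interval from -0.54 to 0.06. The edgeR p-value was 0.0981 unadjusted and 0.808 adjusted, and the log2 fold change was -0.16 without control mouse 2. In the authors' FPKM values, a measure per length of transcript, the groups overlapped, with 65.1, 79.0 and 68.9 in control and 65.9, 64.9 and 55.4 in fibrosis mice.

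The ratio of 2 genes within a library does not depend on how libraries are scaled. The ratio of Igfbp4 to Igfbp3 in CPM was 2.88, 2.96 and 2.97 in control mice 1, 2 and 3 and 5.46, 6.26 and 4.52 in fibrosis mice 1, 2 and 3. The ratio of Igfbp7 to Igfbp3 was 2.67, 2.48 and 2.51 in control and 4.46, 4.32 and 3.45 in fibrosis mice. For both ratios every fibrosis mouse was above every control mouse, fibrosis mouse 3 included, and the 3 control mice lay close together. These pairs were chosen after the values were seen, and they set the members with the largest positive log2 fold changes against the one with the largest negative value. That choice itself pulls the groups apart, so the ratios are descriptions without a test.

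Igf1 gave different pictures in the 2 deposited units. The gene (ENSMUSG00000020053) lies on the forward strand of chromosome 10 from 87858265 to 87937042. In counts it had 72.3, 85.5 and 105 CPM in control mice 1, 2 and 3 and 91.0, 100.01 and 103 CPM in fibrosis mice 1, 2 and 3. The highest mouse was a control mouse, and the groups overlapped. Group means ± SD were 87.7 ± 16.5 CPM for controls and 97.98 ± 6.27 CPM for fibrosis (n = 3 each), and the log2 fold change of 0.16 had a 95% interval from -0.21 to 0.53. It was 0.042 without control mouse 1, 0.31 without control mouse 3 and -0.0029 without the 2 libraries rich in retinal RNA. In FPKM it had 23.0, 29.4 and 32.7 in control mice 1, 2 and 3 and 38.8, 40.8 and 36.9 in fibrosis mice 1, 2 and 3. Here the groups did not overlap, as for 12.7% of tested genes in either direction and for 8.76% with fibrosis higher. The exact permutation p was 0.1 in FPKM and 0.4 in CPM. From limma on log2(FPKM + 0.1) the difference was 0.46, with an adjusted p-value of 0.482, while the median over all genes in that fit was 0.05.

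The counts behind 1 unit of FPKM were then compared, after these values had been seen. In each library this ratio was divided by its median over the tested genes. FPKM is scaled by transcript length, so this ratio can depend on the length used for a gene. For Igf1 it was 1.12, 1.03 and 1.14 in control mice 1, 2 and 3 and 0.870, 0.919 and 1.02 in fibrosis mice 1, 2 and 3. The groups did not overlap, as for 14.2% of tested genes, and the mean difference was -0.23 on the log2 scale, a size reached in either direction by 2.45% of tested genes. For Igf1r, Igf2r, Igfbp3, Igfbp5, Igfbp6 and Igfbp7 the same ratio was nearly constant, with a range of 0.02 on the log2 scale over the 6 libraries, and Igf2 (0.15) and Igfbp2 (0.07) lay between. For Igfbp4 it varied more, by 0.43, with 1.37, 1.17 and 1.02 in control and 1.24, 1.06 and 1.03 in fibrosis mice, so the groups overlapped. GENCODE lists 8 transcripts of Igf1, from 510 to 7052 bases, and 6 of Igfbp4, from 452 to 3831 bases. Which transcripts were read was not analysed here, and the cause of the differences in this ratio was not tested.

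**Figure D3:**
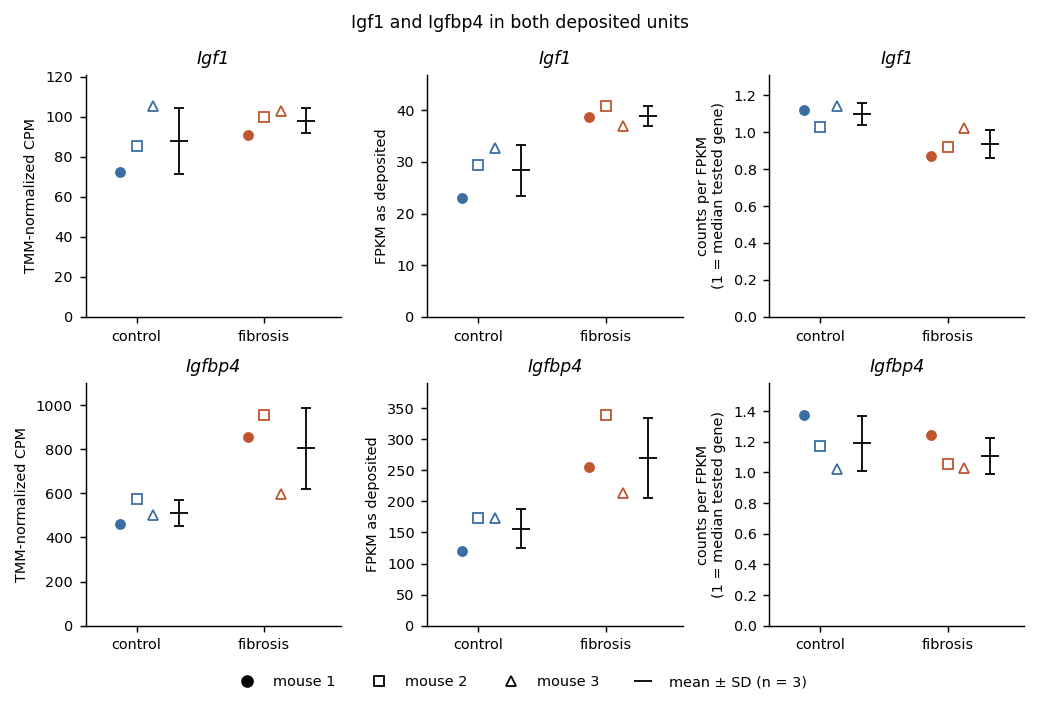
Igf1 (top) and Igfbp4 (bottom) are plotted for 3 control and 3 fibrosis mice as CPM, as deposited FPKM and as counts per unit of FPKM relative to the median tested gene, with bars for the mean ± SD. For Igf1 the groups overlap in CPM and not in FPKM, and for Igfbp4 they overlap in neither.

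Igf2, the ligand known for fetal growth, lies on the reverse strand of chromosome 7 (ENSMUSG00000048583, 142650766 to 142666816). It had 63.9, 62.3 and 43.3 CPM in control mice 1, 2 and 3 and 62.0, 58.0 and 36.6 CPM in fibrosis mice 1, 2 and 3. One mouse of each group was low, and the other 2 mice of the groups were nearly level. Its log2 fold change of -0.11 had a 95% interval from -0.68 to 0.46, and it turned to 0.10 without fibrosis mouse 3 and to 0.18 without both libraries rich in retinal RNA. Per length, Igf2 was above Igf1 in 5 of 6 libraries, with a ratio of 2.40, 1.65 and 1.03 in control mice 1, 2 and 3 and 1.39, 1.26 and 0.829 in fibrosis mice 1, 2 and 3. These ratios include the FPKM of Igf1, for which counts per unit of FPKM differed between the groups, as given above. The annotated gene Gm49394 overlaps Igf2 on the same strand and was not among the genes listed.

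The receptors were the least abundant members per length. Igf1r (ENSMUSG00000005533, chromosome 7, 67952827 to 68233668) had 101, 116 and 82.3 CPM in control mice 1, 2 and 3 and 113, 97.0 and 68.5 CPM in fibrosis mice 1, 2 and 3. The groups overlapped, mouse 3 was the lowest in each, and the log2 fold change of -0.10 (95% interval -0.60 to 0.40) turned to 0.02 without control mouse 2, to 0.080 without fibrosis mouse 3 and to 0.079 without both libraries rich in retinal RNA. Igf2r (ENSMUSG00000023830, chromosome 17, 12682406 to 12769664) had 35.8, 49.97 and 43.2 CPM in control and 52.6, 53.1 and 42.5 CPM in fibrosis mice. Fibrosis mice 1 and 2 were above the control mice and fibrosis mouse 3 was not. Its log2 fold change was 0.20 with a 95% interval from -0.19 to 0.59, and it was 0.087 without control mouse 1, 0.32 without control mouse 2 and 0.30 without fibrosis mouse 3.

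Across the whole family, levels were ordered per length, in FPKM. By the median over 6 libraries the order was Igfbp7 (418), Igfbp6 (297), Igfbp5 (274), Igfbp2 (215), Igfbp4 (194), Igfbp3 (65.5), Igf2 (49.96), Igf1 (34.8), Igf1r (8.72) and Igf2r (5.17). From Igfbp7 to Igfbp4 the ranges of neighbours overlapped, and Igfbp6 was above Igfbp5 in only 2 libraries. Igfbp4 and Igfbp3 did not overlap, nor did Igf1 and Igf1r. The 6 binding proteins together had 1111, 1391 and 1541 FPKM in control mice 1, 2 and 3 and 1766, 1936 and 1564 FPKM in fibrosis mice 1, 2 and 3. The 2 ligands together had 78.4, 78.0 and 66.4 FPKM in control and 92.5, 92.1 and 67.5 FPKM in fibrosis mice. There was thus between 14.2 and 23.2 times as much binding protein as ligand transcript in control mice, and between 19.1 and 23.2 times in fibrosis mice. The groups overlapped in that ratio, and the highest value was in control mouse 3. The sums include Igf1 and Igfbp4, for which counts per unit of FPKM varied between libraries, as given above.

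**Figure D4:**
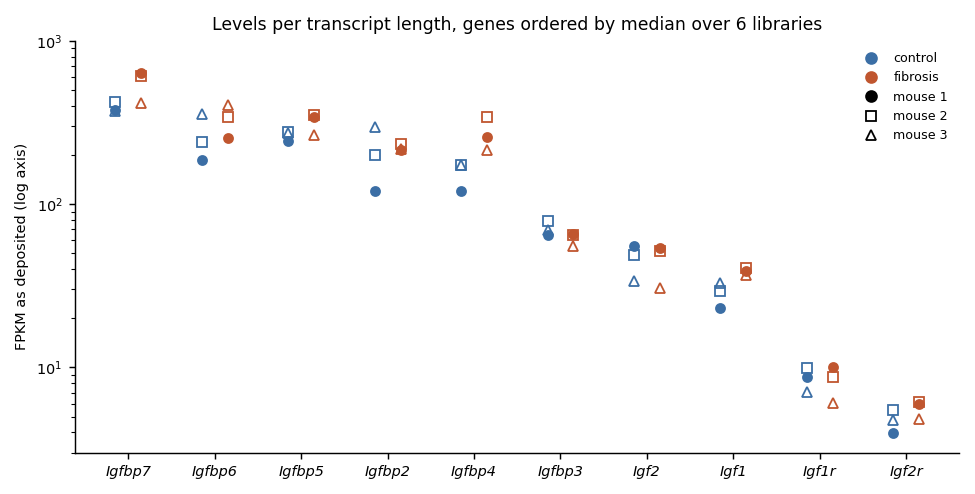
The deposited FPKM of the 10 genes is plotted on a log axis for each mouse, control in blue and fibrosis in orange, with genes ordered by their median over 6 libraries. The 6 binding proteins lie above the ligands in median level, and the receptors lie lowest, at 3.97 to 10.01 FPKM.

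Genes that act on the family outside the cell were taken from a list of 11, of which 6 could be tested. Of the others, 3 (Igfals, Pappa and Stc2) were too low and 2 were not found by symbol among the genes listed. In edgeR 1 was higher and 1 lower in fibrosis at an unadjusted p-value below 0.05, against 4.16% and 2.85% of all tested genes. After adjustment 0 were called, as were 0% of all tested genes. The list's median log2 fold change was 0.16. Htra1, a secreted serine protease that cuts IGF binding proteins and matrix, had 63.4, 101 and 123 CPM in control mice 1, 2 and 3 and 158, 182 and 172 CPM in fibrosis mice 1, 2 and 3. Every fibrosis mouse was above every control mouse, as for 6.67% of all tested genes, also between the 2 libraries rich in retinal RNA. Its log2 fold change was 0.84, with a standard error of 0.23. The edgeR p-value was 0.00892 unadjusted and 0.422 adjusted, and DESeq2 gave an adjusted p-value of 0.0597. Without control mouse 1 the log2 fold change of Htra1 was 0.61. Without the 2 libraries rich in retinal RNA it was 0.60, and edgeR did not call it (adjusted p-value 0.0996). Stc1, a stanniocalcin that inhibits the proteases PAPP-A and PAPP-A2, had 34.0, 70.1 and 86.9 CPM in control and 27.2, 31.2 and 38.2 CPM in fibrosis mice. Control mouse 1 was below fibrosis mouse 3, so the groups overlapped. Stc1 had a log2 fold change of -0.98, with a standard error of 0.33 and an adjusted p-value of 0.562 from edgeR. Without the 2 libraries rich in retinal RNA it was -1.43 and edgeR called it at an adjusted p-value of 0.00952, while between those 2 the fibrosis library was the higher. Pappa2, the protease of Igfbp3 and Igfbp5, had group means ± SD of 11.3 ± 2.35 CPM for controls and 14.1 ± 2.24 CPM for fibrosis (n = 3 each). Pappa, the protease of Igfbp4, had at most 1.63 CPM in any library and was not tested.

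Inside the cell, all 30 listed genes of IGF receptor signalling were tested. Their median log2 fold change was 0.00, 17 were above 0 and 13 below. In edgeR and in DESeq2, 0 of the 30 were called, against 0% and 1.14% of all tested genes. Akt1 (higher in fibrosis) and Rheb (lower) were among those at an unadjusted p-value below 0.05 in edgeR, a limit met by 7.01% of all tested genes. Akt1, a kinase downstream of PI3 kinase, had 44.6, 43.4 and 45.1 CPM in controls and 59.8, 63.7 and 53.3 CPM in fibrosis, a log2 difference of 0.41 ± 0.11 (SE) with an adjusted p-value of 0.422. Rheb, the small GTPase that activates mTOR, had 179, 174 and 171 CPM in controls and 145, 144 and 145 CPM in fibrosis, a log2 difference of -0.27 ± 0.09 (SE) with an adjusted p-value of 0.582. For both genes the control and fibrosis mice were fully separated, as for 13.1% of all tested genes. The largest positive value of the list was that of Grb14, an inhibitor of insulin and IGF receptor signalling, at 0.51 with a 95% interval from -0.10 to 1.12.

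The 4 genes listed for sorting by mannose 6-phosphate, the tag that Igf2r reads, included M6pr, which encodes another receptor for it. Their log2 fold changes lay between -0.08 (Gnptg, a subunit of the enzyme that starts the tag) and 0.29 (Nagpa, the enzyme that uncovers it). None was at an unadjusted p-value below 0.05 in edgeR. Nor were Igf2bp1 (-0.53) or Igf2bp2 (0.19), which encode proteins that bind Igf2 mRNA, and Igf2bp3 was too low to test. The 6 tested imprinted growth genes, a class to which Igf2 belongs, lay between -0.26 (Dlk1, a membrane protein of growth and fat cell development) and 0.25 (Cdkn1c, a cell cycle inhibitor). None of them passed that limit either. The plot of fold changes gives these genes with their intervals.

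**Figure D5:**
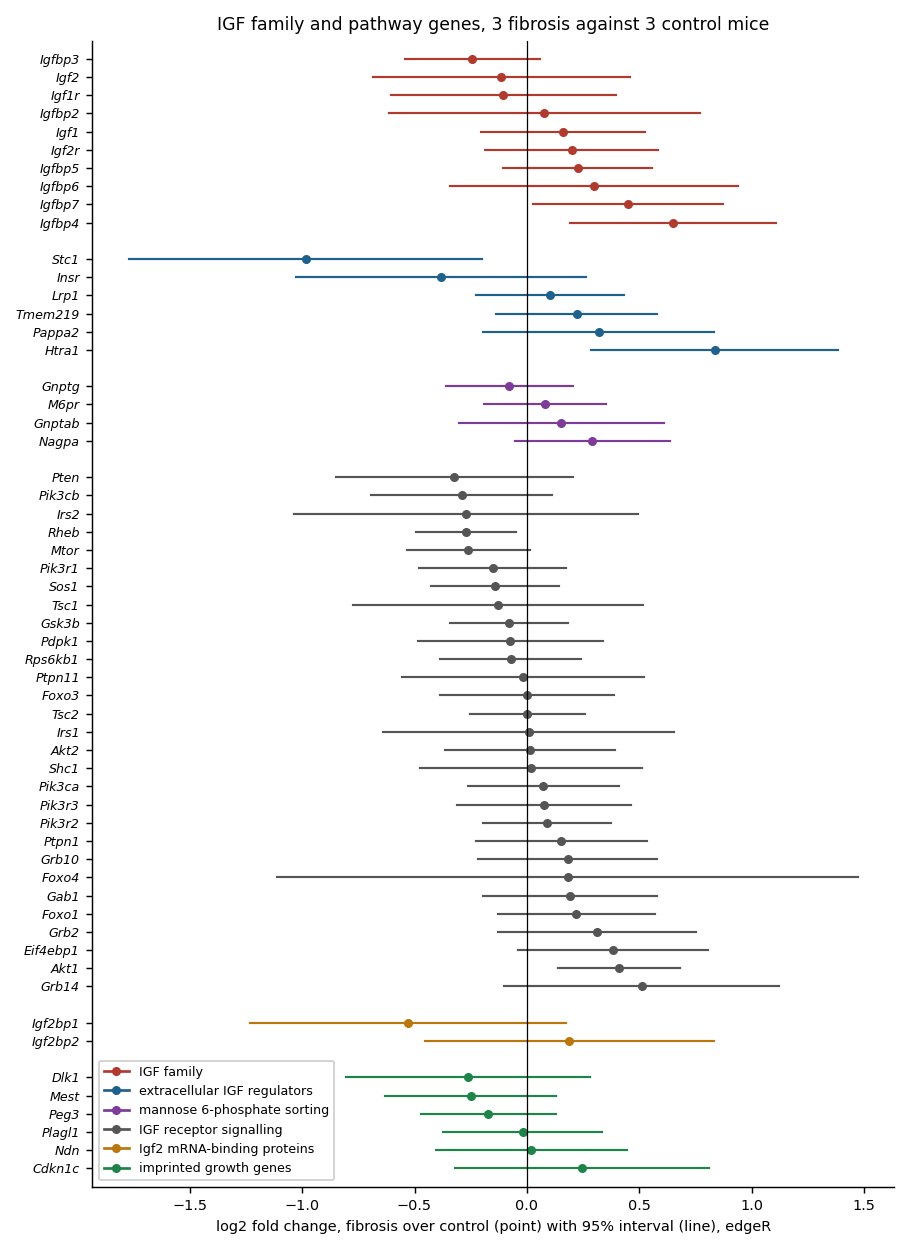
The log2 fold change of fibrosis over control is plotted with its 95% interval from edgeR for the 10 family members and for genes of 5 pathway lists, 1 gene per row and 1 color per list. Most intervals include 0, and the largest positive and negative values are those of Htra1 (0.84) and Stc1 (-0.98).

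The genes whose levels followed the ligands most closely were found by Pearson's correlation of log2 CPM over the 6 libraries, among 13444 other genes. For Igf1 these were Arpc5, an actin nucleation subunit (r = 0.999), Chad, a cartilage matrix protein (r = 0.996), and Adam17, a membrane protease (r = 0.995). For Igf2 they were Rexo2, an oligoribonuclease of mitochondria (r = 0.997), and the mitochondrial ribosome genes Mrps16 (r = 0.996) and Mrpl30 (r = 0.994). The 6 libraries differed in depth and tissue composition, and 139 genes reached r of 0.95 with Igf1 and 242 with Igf2. These likenesses are therefore descriptions of the libraries.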

How the data were processed

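RNA-seq libraries of RPE-choroid from 3 control and 3 subretinal fibrosis mice were grouped by their sample titles. Per the study's methods the authors filtered reads with FASTP and counted reads per gene with StringTie. The deposited counts were raw integers. The authors also deposited FPKM, scaled by transcript length and mapped reads. The aligner, genome build and strandedness are not given in the sources used here. Symbols and positions came from GENCODE M21 (GRCm38), which held 15659 of 15663 identifiers, and promoter sequences from RefSeq on GRCm38.p6.

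A gene entered the test when 2 or more libraries held over 50 counts, in edgeR 4.0.16 in R 4.3.3 (TMM, glmQLFit and glmQLFTest with defaults, group as the only term), with Benjamini-Hochberg adjustment over 13454 genes. Calls required adjusted p below 0.05 and an absolute log2 difference of 0.5 or more, the study's own limits. Standard errors were derived as the absolute log2 fold change divided by the square root of the edgeR F statistic. The 95% intervals were built from these with the t distribution. DESeq2 1.42.0, limma 3.58.1 on log2(FPKM + 0.1) or log2(FPKM + 1), other normalizations and filters, a replicate block, a photoreceptor covariate and left-out mice were alternatives. Same-numbered mice are different animals. Family members, pathway lists and marker lists were chosen with earlier results of these data known. All members were named, with every gene of the pathway lists at an unadjusted p-value below 0.05 in edgeR or called by DESeq2, the extremes of each list, and the 3 genes most like each ligand. One pathway gene is not reported here. Pappa, Pappa2 and Igf2bp3, and the comparison of counts with FPKM, were added after values were seen. CPM values are TMM-normalized, and errors are SDs over 3 mice, which may include technical spread.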

Additional observations from a re-analysis of the deposited data

How the results depend on the processing

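Over 17 alternatives the 10 members gave 170 values, of which 160 kept their direction and stayed uncalled. Igfbp3, Igfbp4, Igfbp5, Igfbp7 and Igf2r kept their direction in all 17. Genes called numbered 0 in the analysis reported, with 943 at an unadjusted p-value below 0.05 in edgeR, and 153 with DESeq2, 1 each with legacy = FALSE, upper quartile normalization, no low-count filter, filterByExpr and the photoreceptor covariate, 2 with either limma fit on FPKM, and 153 without control mouse 1 and fibrosis mouse 3. They numbered from 0 to 5 with 1 mouse left out, the 5 without control mouse 1. Members called numbered 0 except for 1, Igfbp4, without those 2 libraries, where it was at 0.75 (log2). There the values of Igf1 (-0.0029), Igf2 (0.18), Igf1r (0.079), Igfbp2 (-0.19), Igfbp6 (-0.068) and Gnptg (0.047) turned direction and Stc1 (-1.43) was called; that fit has 2 mice per group. With 1 mouse left out, log2 fold changes ranged from -0.27 to 0.10 for Igf2, from -0.27 to 0.080 for Igf1r (0.02 without control mouse 2), from -0.19 to 0.42 for Igfbp2 and from -0.15 to 0.0032 for Gnptg. The cause of these changes was not tested. In the fit with a replicate block by mouse number 0 genes and 0 members were called. Once group means were removed, the control and fibrosis libraries of number 1, 2 and 3 correlated at -0.48, 0.49 and -0.30. The values for numbers 1 and 3 each include a library rich in retinal RNA (control mouse 1 and fibrosis mouse 3). They therefore cannot show whether same-numbered mice shared more than a number, and this was not tested. With 3 mice per group the widest 95% interval of a member ran from -0.61 to 0.77, for Igfbp2.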
